A study of Homo sapiens with 8 samples.

Results

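KMT2C guides whose names carry a number above 3600 and up to 9000 were followed in a pooled Cas9 screen of the human breast cancer cell line KPL-1. The number was read as a nucleotide of the KMT2C coding sequence, which places these guides after residue 1200 and up to residue 3000, the middle of the protein. There were 539 such guides, out of 1334 for KMT2C and 5995 in the whole pool. The reading rests on the range of the numbers, which run from 10 to 14723 for KMT2C and so end at residue 4908, near the end of the protein. The guide table does not define the number, so all residues below rest on this reading.

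The cells carried a doxycycline-inducible Cas9 (iCas9) and the guide pool sgKMT2pool, and 1 library was counted at day 14 of doxycycline (genotype label "Functional domains knockout") and 1 at day 0 (genotype label "WT"). The labels do not say whether the iCas9 line was 1 clone, and they repeat an RNA protocol for both guide libraries. Transcripts had been measured at day 7 of doxycycline in 3 libraries each of sgSETD1A and sgEmpty cells; the sgEmpty libraries, without a SETD1A guide, are used here for transcript levels. As each day has a single library, no guide has a replicate error, and changes are described without p-values.

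KMT2C, also called MLL3, is one of the large histone methyltransferases that place a single methyl group on lysine 4 of histone H3, a mark of enhancers. It works in a complex with the shared core subunits WDR5, RBBP5, ASH2L and DPY30 and with the subunits KDM6A, NCOA6, PAXIP1 and PAGR1 that distinguish the complexes of KMT2C and KMT2D. KMT2C is often mutated in breast cancer. Clusters of PHD fingers, which read histone tails, lie toward the amino end, and the FYR and catalytic SET domains lie at the carboxyl end. The middle of the protein is long and mostly without a known fold, apart from an annotated HMG box, a kind of domain that in other proteins binds DNA. In a tiling screen guides are placed densely along a coding sequence, and a stretch that the cells need for growth is looked for as a run of neighbouring guides that are lost together. Guide and protein sequences were not used here.

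Read totals were 10255022 at day 14 and 10145466 at day 0. The readout of a guide is a log2 ratio, day 14 over day 0, of its reads per library total (CPM) after adding 1 CPM. From it the median of the 200 guides with names in HGLibA was subtracted. From background knowledge, not from the table, these are taken as controls with no target in the genome. Of the 539 guides, 538 had the 30 day 0 reads asked for. The exception was KMT2C_8628, with 228 reads at day 14 and 10 at day 0. The guide just inside the minimum was KMT2C_7278, with 0 reads at day 14 and 45 at day 0. At the ends of the interval, KMT2C_3591 just outside stood at -0.62 log2 and KMT2C_3666 just inside at -0.06, and KMT2C_8988 just inside at -2.22 and KMT2C_9007 just outside at -1.61.

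Most guides in the middle of KMT2C were lower at day 14 than at day 0 relative to the HGLibA guides. Their median was -0.81 log2 (exact 95% order-statistic interval over guides -0.89 to -0.71), or 0.570 times their starting level relative to the controls. The HGLibA guides lie at 0 by construction, with an interval of -0.05 to 0.05 and an SD of 0.46 over 200 guides, against an SD of 0.87 over the 538. These intervals hold the spread between guides within this pair of libraries, not that between cultures. Of the 538 guides, 466 were below 0 (86.6%), where 86.2% of all 5991 guides with enough reads were below 0.

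A change of -1 log2 or lower was seen in 215 of the 538 guides, or 40.0% (exact Clopper-Pearson 95% interval 35.8% to 44.2%). Over all 5991 guides that share was 46.7%, and 4 of the 200 HGLibA guides were that low. At -0.5 log2 or lower were 351 guides (65.2%), against 65.3% of all guides. At the other end, 2 of the 538 were at 1 log2 or higher (0.372%), against 0.351% of all guides, and 20 were at 0.5 or higher (3.72%), against 2.57% of all guides. By finer steps, 10 guides (1.86%, against 3.34% of all guides) were at -3 or lower and 37 (6.88%, against 13.2% of all guides) between -3 and -2. There were 168 between -2 and -1, 251 between -1 and 0, and 72 above 0. The middle 90% of HGLibA guides ran from -0.74 to 0.77 log2, and 246 of the 538 guides (45.7%) lay inside that range. Below it lay 284 guides (52.8%), against 56.4% of all guides, and 52 guides (9.67%) were below the lowest HGLibA guide at -1.88, against 19.1% of all guides. Above the middle 90% of HGLibA guides lay 8 guides (1.49%), against 0.935% of all guides. Most of the set therefore lay in the range of the controls or below it, with shares below that were no larger than in the whole pool.

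Shares of reads depend on the whole pool. The 539 guides held 729244 reads at day 14 and 669756 at day 0, that is 7.11% of all reads at day 14 and 6.60% at day 0, while HGLibA guides held 5.49% at day 14 and 3.17% at day 0. Without subtraction of the HGLibA median the guides' median was -0.07 log2, since the HGLibA guides themselves stood at 0.74 on that scale, and after subtraction of the median of all guides it was 0.11 log2. The direction of the median thus holds relative to the HGLibA guides and turns relative to the pool.

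Guides that cut the genome outside the studied genes were also in the pool. AAVS1 is a locus commonly used as a target whose cutting is tolerated, and its 5 guides stood at -1.46, -1.30, -1.01, -0.74 and 0.18 log2. The median of the KMT2C guides in the middle, -0.81, lies inside that range and above the median of the 5 AAVS1 guides, -1.01. The part that DNA cutting as such has in the changes was not tested. Guides against PCNA, POLR2A, POLR2L, RPA3 and SF3B3, genes that dividing cells need, had a median of -3.63 log2 over 25 guides, and 24 of these were at -1 or lower. At -3 or lower were 17 of those 25, and 10 of the 538 KMT2C guides.

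Cut into 18 windows of 100 residues, the middle of KMT2C showed a median below 0 in each window with HGLibA centring. The lowest window median was -1.22 log2 in the first window, up to residue 1300, and the highest -0.55 at residues 1501 to 1600. Windows held 10 to 49 guides. In 16 windows the interval over guides lay below 0, and in 17 it held the median of all 538 guides, -0.81. The exception lay at residues 2501 to 2600, where the interval ended narrowly below it, at -0.83. Among 18 intervals, whether this miss goes beyond chance was not tested, and the 538 guides include those of the window. The SD of the 18 window medians was 0.21, whereas the SD of guides within a window had a median of 0.80 and ran from 0.60 to 1.55. Windows accounted for 7.46% of the sum of squares between guides, and any cut into windows takes up part of that sum. Medians over 10 to 49 guides vary less than single guides through averaging, so these SDs do not show whether the windows differ.

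From the amino end, the window medians after -1.22 were -0.57 at residues 1301 to 1400, -0.60 at 1401 to 1500, -0.55 at 1501 to 1600, -0.81 at 1601 to 1700 and -0.62 at 1701 to 1800. The next windows stood at -0.87 at 1801 to 1900, -0.58 at 1901 to 2000, -1.03 at 2001 to 2100, -0.56 at 2101 to 2200, -0.77 at 2201 to 2300 and -0.74 at 2301 to 2400. Toward residue 3000 they were -0.85 at 2401 to 2500, -1.20 at 2501 to 2600, -1.02 at 2601 to 2700, -0.84 at 2701 to 2800, -0.72 at 2801 to 2900 and -0.97 at 2901 to 3000. By blocks of 600 residues the medians were -0.65 up to residue 1800 (interval -0.88 to -0.44, 104 guides), -0.71 from there to residue 2400 (-0.85 to -0.57, 232 guides) and -0.94 beyond residue 2400 (-1.02 to -0.83, 202 guides). The carboxyl block was the lowest, and its interval overlapped those of both other blocks. Across the 538 guides the correlation of position and change was -0.04 (Pearson) and -0.08 (Spearman), a description over guides that share both libraries.

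The lowest window, the first, held 10 guides. At its start KMT2C_3666 had 1926 reads at day 14 and 1185 at day 0, a change of -0.06 log2, and KMT2C_3674 and KMT2C_3694 stood at -0.42 and -0.19. KMT2C_3681, KMT2C_3682 and KMT2C_3686 lay at -1.07, -1.36 and -0.84, and KMT2C_3707, with 298 reads at day 14 and 765 at day 0, at -2.09. The 3 last guides of the window, at residues 1253 to 1263, were all below -1. Of these KMT2C_3759, with 2922 reads at day 14 and 4992 at day 0, stood at -1.53, and KMT2C_3782, with 81 and 331 reads on those days, at -2.66. KMT2C_3787 had 0 reads at day 14 and 228 at day 0, a readout of -5.29 log2. With a floor of 3 counts in the day 14 library and no added 1 CPM it was 128-fold lower than the HGLibA guides. Its counting interval ended at -6.70 log2. The window therefore ran from little loss to no reads left, and its interval of -2.66 to -0.19 is the widest of the 18.

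Residues 2501 to 2600 formed the lowest window among those with at least 20 guides, at -1.20 log2 (interval -1.48 to -0.83) over 34 guides. It was also 1 of 2 windows in which no guide was above 0. It was picked for its low median, and 21 of its guides (61.8%, interval 43.6% to 77.8%) were at -1 or lower. Over all guides that share was 46.7%, inside this interval. Over all 538 guides of the middle it was 40.0% and over the other KMT2C guides 40.9%, both below the interval. As the window was picked for its low values, this does not show that it stands apart within the gene. The lowest guide of the window was KMT2C_7566, with 63 reads at day 14 and 272 at day 0, at -2.70. KMT2C_7617, with 593 reads at day 14 and 1560 at day 0, stood at -2.14, KMT2C_7513 at -2.06 and KMT2C_7601 at -1.90. Loss was spread over the window and was not deep: 9 of the 34 guides lay in the middle 90% of HGLibA guides. The 5 guides at residues 2596 to 2599, from KMT2C_7788 to KMT2C_7796, were the mildest run, between -0.95 and -0.03. The windows on its carboxyl side and amino side, at -1.02 and -0.85, were lower than the median of all 538 guides too.

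Residues 1501 to 1600 gave the highest window median, -0.55 log2 (interval -0.92 to -0.17), over 25 guides. With at least 300 day 0 reads the highest window was instead that of residues 1301 to 1400, at -0.49. The 10 guides at residues 1501 to 1550 ran from -1.52 (KMT2C_4632) to -0.02 (KMT2C_4650) with a median of -0.84, and 4 of them were at -1 or lower. From KMT2C_4685 to KMT2C_4745, residues 1562 to 1582, 9 guides in a row had a median of 0.07 and none was at -1 or lower. In that run KMT2C_4721 stood at 0.80, with 545 reads at day 14 and 178 at day 0, KMT2C_4694 at 0.25, KMT2C_4722 at 0.24 and KMT2C_4745 at 0.20, and KMT2C_4708 was the lowest at -0.84. The run was chosen after its values were seen. Past it, KMT2C_4780 lay at -1.07, and 2 rows named KMT2C_4788 lay at -0.55 and -1.62.

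Of the 12 lowest guides, 5 lay in residues 2401 to 2500, a window that held 49 of the 538 guides, the most of any. Another 2 each lay in 1601 to 1700 and 2001 to 2100, and 1 each in the first window, 1301 to 1400 and 1901 to 2000. The window of residues 2401 to 2500 was close to all 538 guides in its median, -0.85 over 49 guides, and had the second largest SD of the 18, 1.19. KMT2C_7407 had 0 reads at day 14 and 277 at day 0, a readout of -5.56 log2. By the floor of 3 counts, without the added 1 CPM, it was 156-fold lower, and its counting interval ended at -6.98 log2. KMT2C_7399, 8 nucleotides before it, had 63 reads at day 14 and 1016 at day 0, a change of -4.57 log2 (counting interval of the ratio without the added 1 CPM, -5.16 to -4.40). KMT2C_7416 had 160 reads at day 14 and 764 at day 0 (-2.94 log2), and KMT2C_7482 had 133 and 635 (-2.93 log2). KMT2C_7278 had 0 and 45, a readout of -3.18 log2. It was 25.4-fold lower by the floor of 3 counts, and its counting interval ended at -4.31 log2.

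Between these lay guides that hardly changed. In the 19 nucleotides from KMT2C_7398 to KMT2C_7416, residues 2466 to 2472, there were 7 guides, and 4 of them were below -1. KMT2C_7398 stood just above -1, KMT2C_7399 at -4.57, KMT2C_7404 at -2.24, KMT2C_7407 had no reads left, KMT2C_7414 stood at -0.96, KMT2C_7415 at 0.03 and KMT2C_7416 at -2.94. The last 3 are 1 nucleotide apart and their counting intervals do not overlap: KMT2C_7415 had 1982 reads at day 14 and 1148 at day 0. A second such place was KMT2C_7213 at -0.34 beside KMT2C_7214 at -2.06 and KMT2C_7215 at -2.10. These stretches, too, were chosen after their values were seen. In the same window KMT2C_7326, with 1555 reads at day 14 and 500 at day 0, was among the highest guides at 0.86.

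The other guides among the 12 lowest lay elsewhere. KMT2C_5901 at residue 1967 had 160 reads at day 14 and 1430 at day 0 (-3.84 log2), in a window with a median of -0.58. KMT2C_6141 had 108 reads at day 14 and 751 at day 0 (-3.44 log2), and KMT2C_6039 had 170 and 1145 (-3.44 log2). Both lay in residues 2001 to 2100, where the median was -1.03. In that window 17 of 32 guides (53.1%) were at -1 or lower, against 46.7% of all guides. The 2 rows named KMT2C_6033, 6 nucleotides before KMT2C_6039, were at -2.21 and -1.03. KMT2C_4083 had 66 reads at day 14 and 382 at day 0 (-3.12 log2). KMT2C_5003 had 304 and 1531 (-3.05 log2) and KMT2C_5077 had 224 and 1105 (-3.01 log2), at residues 1668 and 1693. Just before the first of these, both rows named KMT2C_4990 at residue 1664 were above 0, at 0.65 and 0.12.

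The 8 highest guides lay in 8 different windows. KMT2C_8174 at residue 2725 had 1265 reads at day 14 and 207 at day 0, a change of 1.80 log2 (counting interval 1.64 to 2.07). KMT2C_4449 at residue 1483 had 2066 reads at day 14 and 492 at day 0, or 1.29 log2 (1.17 to 1.46). After these came KMT2C_8793 at 0.91, KMT2C_5941 at 0.89, KMT2C_6240 at 0.87, KMT2C_7803 at 0.87, KMT2C_7326 at 0.86 and KMT2C_4721 at 0.80. The highest HGLibA guide was at 1.69, so KMT2C_8174 alone, of the guides with enough day 0 reads, passed it. KMT2C_8628, left out for its 10 day 0 reads, would have stood at 2.81.

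Neighbouring guides were hardly more alike than distant ones. Over 243 pairs 1 to 3 nucleotides apart the median absolute difference was 0.70 log2, over 1563 pairs 4 to 30 nucleotides apart 0.74, and over 127208 pairs more than 300 nucleotides apart 0.75. The correlation within pairs, taken in both orders, was 0.13 at 1 to 3 nucleotides, 0.06 at 4 to 30 and -0.01 beyond 300. Pairs share guides, so these are descriptions. At 1 to 3 nucleotides, 55.1% of pairs had both guides on the same side of -1, against 51.8% beyond 300.

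Rows that share a name gave the closest comparison, since both are read as the same position. There were 12 such names with 2 rows each. The rows differed by a median of 0.99 log2. In 2 names both rows were at -1 or lower, in 7 names 1 row was, and in 3 names neither was. The correlation within these 12 pairs, taken in both orders, was 0.30, higher than the 0.13 at 1 to 3 nucleotides. On the other hand, 41.7% of them had both rows on the same side of -1, against 55.1% at 1 to 3 nucleotides. With 12 pairs, both values are descriptions only. KMT2C_7317 had the smallest difference, 0.15, with 855 reads at day 14 and 729 at day 0 in one row and 3518 and 2715 in the other. KMT2C_6443 had the largest, 1.90, with 479 reads at day 14 and 708 at day 0 (-1.31 log2) in one row and 857 and 332 (0.58 log2) in the other. KMT2C_5941 had both rows above 0, at 0.89 and 0.65, and KMT2C_7955 both below -1, at -1.64 and -1.46. What separates rows of 1 name, such as the strand, was not stated in the labels or the files.

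Counting error was small beside these differences. The median width of the 95% counting interval of a single guide was 0.24 log2, which covers counting error only, as reads without molecular identifiers are not independent molecules. Medians in 4 groups by day 0 reads were -0.72 (45 to 722 reads), -0.90 (724 to 1130), -0.76 (1131 to 1598) and -0.85 (1599 to 4992), with no order by depth. The correlation of log2 day 0 reads and change was 0.06 (Pearson) and 0.03 (Spearman) over the 538 guides. By the codon base that the number falls on, the medians were -0.66 for the first (149 guides), -0.74 for the second (157) and -0.88 for the third (232), with overlapping intervals of -0.88 to -0.56, -0.90 to -0.55 and -1.03 to -0.76.

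Set against the rest of the gene, the middle gave values close to those of KMT2C as a whole. Their median of -0.81 was 0.05 log2 above that of the 793 other KMT2C guides with enough reads, -0.86 (interval -0.91 to -0.81). An interval centred on that difference, with the width of the interval of the middle alone, ran from -0.04 to 0.14 and so held 0. It leaves out the spread of the 793 other guides. Guides of the middle were at -1 or lower in 40.0% of cases and the others in 40.9%. Residues up to 1200, with PHD fingers, had a median of -0.90 (interval -1.06 to -0.83, 156 guides), residues 3001 to 4300 one of -0.77 (-0.85 to -0.65, 447 guides), and the end beyond residue 4300, with the FYR and SET domains, one of -0.98 (-1.13 to -0.88, 190 guides). The intervals of the middle and of residues 3001 to 4300 overlap widely, and that of the carboxyl end meets the middle only at its edge. No test of these differences is possible with 1 library per day.

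By windows of 100 residues, the 18 in the middle ran from -1.22 to -0.55, and the 30 others with at least 3 guides from -1.81 to -0.43. In the order of all 48 windows of the gene, from the lowest, the first window of the middle was at rank 3 and residues 2501 to 2600 at rank 5. At the high end, residues 1501 to 1600 were at rank 47, 2101 to 2200 at rank 46, 1301 to 1400 at rank 45 and 1901 to 2000 at rank 44. The middle thus held windows from both ends of the order. Over whole targets the medians were -1.43 for KMT2D, the paralog of KMT2C, -1.23 for SETD1A, -0.64 for BOD1L1 (interval -0.72 to -0.56) and -0.25 for SETD1B. The median of the middle of KMT2C lies between those of SETD1A and BOD1L1.

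KMT2C was transcribed in this line. In the 3 sgEmpty libraries its level was 23.5, 26.5 and 24.9 TPM, a mean of 24.95 ± 1.54 TPM (SD, n = 3), higher than the mean of 72.3% of the symbols in the table, where it is listed under its older symbol MLL3. Of its partners, the demethylase KDM6A stood at 13.1 ± 0.39 TPM, the coactivator NCOA6 at 11.9 ± 0.20, PAXIP1 at 16.2 ± 1.36 and PAGR1, listed as C16orf53, at 33.1 ± 1.41 TPM (SD, n = 3 each). The core subunits were WDR5 at 54.9 ± 2.66, RBBP5 at 19.9 ± 0.59, ASH2L at 26.9 ± 0.56 and DPY30 at 171.9 ± 8.39 TPM (SD, n = 3 each). SETD1A and SETD1B, whose guides stood on either side of the middle of KMT2C, had 17.7 ± 0.31 and 16.4 ± 0.54 TPM (SD, n = 3 each), a little below KMT2C. KMT2D matched more than 1 symbol of the table and is not given. The line's label fitted its markers: the epithelial keratin KRT8 stood at 6214 TPM and the luminal factor GATA3 at 652.9 TPM on average, and the white blood cell gene PTPRC was at 0.0725 TPM or lower in each sgEmpty library.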

How the data were processed

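The authors deposited raw read counts for each guide, with no normalization; the row of column totals was left out and equalled the sum of the others. The labels do not say how guides were counted. The expression table holds TPM deposited by the authors; its row without a gene name, the column total, was left out. Per the submitters' processing notes the build was hg19 and the tools were RSEM 1.3.1, STAR 2.6.0c and bcl2fastq 2.20.0, with no roles stated. All columns matched sample titles. Changes, intervals and windows were computed with Python 3.11.15, numpy 2.4.6, pandas 2.3.3 and scipy 1.17.1. The computing was checked on simulated counts without a spread between guides of 1 window, which does not show how well window medians are recovered here. Counting intervals of single guides are exact binomial intervals of the split of reads between the days, with totals and the HGLibA median taken as known. For a count of 0 a fold is given with a floor of 3 counts, a larger loss than the upper end of that interval. Guides named are the 12 lowest, the 8 highest, those of the lowest and highest windows and those at the limits; others were picked after their values were seen. The members and lists were chosen with earlier results of these data known. Some control guides are not reported here. Symbols were matched with RefSeq synonyms.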

Additional observations from a re-analysis of the deposited data

How the results depend on the processing

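The centring decides the level of the guides in the middle of KMT2C. Without centring their median was -0.069 log2, 11.5% were at -1 or lower, 6.69% at 1 or higher, and the highest window stood at 0.19. Relative to the median of all guides these values were 0.11 log2, 9.11%, 10.2% and 0.37. At a threshold of 0.5 log2, 65.2% were low, against 65.3% of all guides, and 3.72% were high, against 2.57% of all guides. The difference of 0.05 log2 from the other KMT2C guides had an interval, without the spread of those other guides, that held 0 in each alternative run. The lowest and highest windows depended on the setting: residues 2501 to 2600 replaced the first window, up to residue 1300, at -1.20, with at least 20 guides per window, an alternative chosen after seeing the data, as well as with a minimum of 300 reads (-1.20) and without rows that share a name (-1.25). With windows of 50 residues the lowest stood at -2.66 over 3 guides, and with windows of 200 at -0.99. The highest window was at residues 1301 to 1400 with a minimum of 300 reads (-0.49, 11 guides), and at residues 1701 to 1750 with windows of 50 (-0.25, 7 guides). Pseudocounts of 0.1 and 5 CPM, no minimum, a minimum of 300 reads, leaving out rows that share a name, and size factors from HGLibA counts moved none of the medians or shares beyond their intervals. Of the 20 lowest and highest guides, 13 lay outside their counting intervals at 5 CPM and 3 with those size factors. All 20 did so without centring or relative to all guides, and none changed sign in any setting run. The 3 are KMT2C_7407, KMT2C_3787 and KMT2C_7278, with 0 reads at day 14, and are also among the 13. Their main values, with 1 CPM added, already lay above their counting intervals. Leaving out each sgEmpty library in turn gave KMT2C means of 24.2 to 25.7 TPM. No paired analysis was possible because no result comes from a test and each day has 1 library. Guides with few day 0 reads limit depth: by the floor of 3 counts, a guide with 45 reads cannot show a loss beyond about 25.4-fold.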
